A study of Mus musculus with 14 samples.

Results

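The 2 keratin gene clusters of the mouse were examined in a list of H3K27me3 sites from immortalised mouse embryo fibroblasts (iMEF). Members were the protein-coding genes on chromosomes 11 and 15 whose symbol is Krt followed by a number, in the GENCODE annotation of GRCm38, which gave 53 of 21938 protein-coding genes. Of these, 27 lay in the type I cluster on chromosome 11 and 26 in the type II cluster on chromosome 15. By the keratin nomenclature 36 were epithelial keratins, the keratins of the inner root sheath of the hair follicle included, and 15 were hair keratins. The remaining 2, Krt222 and Krt88, were placed in neither class. Krt74, which is annotated as a pseudogene, and Krt85 were not analysed here. Sites were assigned to a member when they overlapped the 1 kb on either side of any of its annotated start sites, called its promoter windows here, or the gene body. In this way 137 of the 153983 sites of the list lay at a keratin gene.

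The cells were NG3 cells, a clone of iMEF with the genotype Ash2l fl/fl Cre-ER, in which exon 4 of the endogenous Ash2l genes had been deleted and which live on lentiviral FKBP-HA2-ASH2L. ASH2L is a subunit of the KMT2 complexes that methylate lysine 4 of histone H3, and the small molecule dTAG-13 brings the FKBP-tagged protein to an E3 ubiquitin ligase for degradation. The study did 2 H3K27me3 ChIP-seq experiments, and the list is from the first, with 12 libraries in 6 groups of 2 replicates. The groups were control cells without dTAG-13 and cells exposed to it for 30 min, 2 h, 4 h, 8 h or 16 h. There were also 2 input libraries of control and 16 h cells. All groups share the deletion and the transgene, and all come from 1 clone. The list combines the sites over all samples and carries no value for any library, so neither an effect of dTAG-13 nor a spread between replicates can be given for any keratin gene. The depth behind a site is unknown, and a site in a cell population does not tell in how many cells the mark is present. Levels of marker genes are not in the list, so the labelled cell type could not be checked against them.

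Keratins are the intermediate filament proteins of epithelial cells and of their appendages. A filament is built from pairs of an acidic type I and a basic type II keratin, so each epithelium expresses matched genes of both types, such as Krt8 and Krt18 in simple epithelia, Krt5 and Krt14 in the basal layer of the epidermis and Krt1 and Krt10 in the layers above. Hair keratins form the shaft of hair and nail. H3K27me3 is set by Polycomb repressive complex 2 and is known for marking genes that are silent in a given lineage, often at promoters rich in CpG.

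None of the 53 keratin genes had a CpG-rich promoter. CpG-rich here means that, within 500 bp of the 5′ start, GC content reached 50% and the ratio of observed to expected CpG reached 0.6. Of all protein-coding genes, 44.4% met these limits. Median values at keratin starts were a GC content of 54.1% and a CpG ratio of 0.302, against 54.7% and 0.552 for all genes. CG dinucleotides were also counted in promoter sequences. RefSeq promoters, 250 bases before to 50 bases after a start, were found for 36 of the 53 members. Those of the genes with the most promoter bases covered in each class are given here, with 1 hair keratin that had no site within 1 kb of a start and was farthest from one. Krt1, Krt35 and Krt80 were chosen by the same rule and are named only. Sequences are from RefSeq on GRCm38.p6, minus strand, written 5′ to 3′, and the capitals mark CG dinucleotides. Krt79, which is expressed in the hair canal and sebaceous duct, is shown at chr15:101940275-101940574. Krt14, the basal keratin, is at chr11:100205981-100206280, where the RefSeq start lies 1518 bp inside the start used for the other values. The hair keratins Krt84 at chr15:101532771-101533070, Krt82 at chr15:101550610-101550909 and Krt39 at chr11:99521289-99521588 follow.

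Krt79: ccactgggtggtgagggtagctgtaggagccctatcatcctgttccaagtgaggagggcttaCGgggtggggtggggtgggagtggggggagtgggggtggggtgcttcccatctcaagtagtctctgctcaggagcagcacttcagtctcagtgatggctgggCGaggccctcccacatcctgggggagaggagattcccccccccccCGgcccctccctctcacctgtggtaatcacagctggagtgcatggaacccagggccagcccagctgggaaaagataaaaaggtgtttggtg
Krt14: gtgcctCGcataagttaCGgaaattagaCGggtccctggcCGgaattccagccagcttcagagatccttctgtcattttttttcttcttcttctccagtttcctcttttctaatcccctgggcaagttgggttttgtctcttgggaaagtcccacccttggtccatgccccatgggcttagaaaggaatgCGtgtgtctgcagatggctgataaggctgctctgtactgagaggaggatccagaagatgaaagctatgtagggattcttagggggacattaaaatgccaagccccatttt
Krt84: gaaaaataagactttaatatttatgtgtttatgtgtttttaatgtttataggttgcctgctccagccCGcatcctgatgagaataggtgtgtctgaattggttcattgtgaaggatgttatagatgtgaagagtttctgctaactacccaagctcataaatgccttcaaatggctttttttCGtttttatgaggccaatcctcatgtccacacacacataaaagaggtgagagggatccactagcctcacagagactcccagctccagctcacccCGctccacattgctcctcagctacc
Krt82: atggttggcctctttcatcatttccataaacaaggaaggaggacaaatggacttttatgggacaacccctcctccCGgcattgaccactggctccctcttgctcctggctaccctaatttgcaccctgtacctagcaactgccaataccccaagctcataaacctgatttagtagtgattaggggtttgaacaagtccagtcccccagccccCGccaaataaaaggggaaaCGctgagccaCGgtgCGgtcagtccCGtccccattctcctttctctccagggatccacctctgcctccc
Krt39: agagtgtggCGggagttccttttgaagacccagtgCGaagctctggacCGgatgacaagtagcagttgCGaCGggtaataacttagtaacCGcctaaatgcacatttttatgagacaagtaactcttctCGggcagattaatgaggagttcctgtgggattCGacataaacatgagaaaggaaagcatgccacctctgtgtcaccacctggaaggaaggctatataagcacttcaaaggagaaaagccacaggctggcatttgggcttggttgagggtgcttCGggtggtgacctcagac

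The number of CG dinucleotides in these 300 bases was 3 in Krt79, 5 in Krt14, 3 in Krt84, 6 in Krt82 and 9 in Krt39. The median was 5 over the 37 RefSeq promoters of keratin genes and 7 over the 32851 promoters of the table. Krt39 was thus above the median of all promoters. Of the 2 promoters without a covered base, Krt39 thus held the most CG dinucleotides of the 5 and Krt79, with Krt84, the fewest. All 300 bases were inside a site in Krt14 and Krt82, 65 in Krt84 and 0 in Krt79 and Krt39. The letters TATAAA on either strand were in 51.4% of the 37 RefSeq promoters of keratin genes and in 13.6% of the 32851 promoters of the table, and among the 5 shown only Krt84 held them. They were in 46.4% of the 28 keratin promoters whose gene had a site and in 66.7% of the 9 whose gene had none. Such a match is a description of the letters in this window.

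An H3K27me3 site was listed in the promoter windows of 42 of the 53 keratin genes, or 79.2% (95% Wilson interval 66.5 to 88.0%). Among all protein-coding genes the share was 31.5%, and among those whose promoter was not CpG-rich it was 36.3%. Intervals cover the counting of genes only, and neighbouring keratin genes are not independent, since they lie in the same stretches of chromatin and 4 sites touched a pair of members each. A site of at least 1 kb was present at 28 members (52.8%, 39.7 to 65.6%), against 20.1% of all genes. The 5′ start itself lay inside a site in 24 members (45.3%, 32.7 to 58.5%), against 16.9% of all genes. At least 50% of the bases of the promoter windows were covered in 26 members, against 13.5% of all genes. Summed over the members, sites covered 46.1% of the promoter windows, while they covered 12.7% over all genes. The keratin shares were above the background by each of these counts.

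Gene bodies were touched by a site in 46 members (86.8%, 75.2 to 93.5%), against 46.7% of all genes, although keratin genes are short, with a median length of 6594 bp beside 17425 bp for all genes. At least 50% of the body was covered in 29 members (54.7%, 41.5 to 67.3%), against 9.35% of all genes. The median covered share of a keratin body was 56.8%, and over all genes the median was 0%. Exons were covered to 53.2% and introns to 45.9% of their length.

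The shares of marked promoters were nearly equal in epithelial and hair keratins. A promoter site was listed for 29 of 36 epithelial keratins (80.6%, 65.0 to 90.2%) and for 12 of 15 hair keratins (80.0%, 54.8 to 93.0%). The difference of 0.556 percentage points had a 95% interval from −19.7 to 27.5 points, which includes differences of some size in either direction, and its sign turned with promoter windows of 500 bp either side (−10.6 points). Sites covered 47.6% of the promoter windows of epithelial and 43.6% of those of hair keratins. This order turned when sites closer than 5 kb were joined, to 60.9% and 65.0%, and when the inner root sheath keratins were counted as hair keratins, to 46.1% and 47.2%. With sites of at least 1 kb the counts were 20 of 36 and 7 of 15, a difference of 8.89 points (−19.3 to 35.3). At least 50% of the body was covered in 21 epithelial and 8 hair keratins, which differed by 5.00 points (−22.2 to 32.4).

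**Figure D1:**
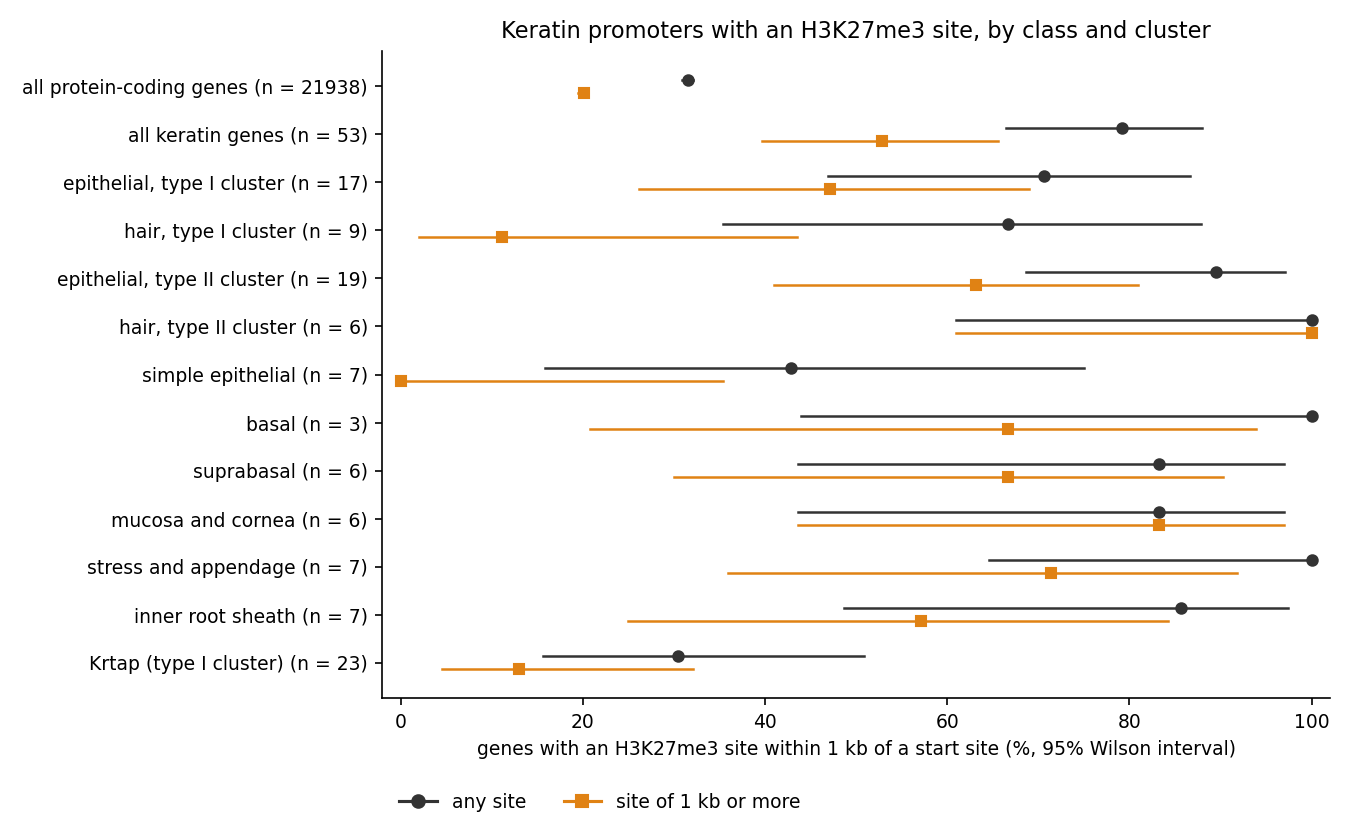
Share of genes (x axis, in %) with an H3K27me3 site within 1 kb of a start site, for all protein-coding genes, all keratin genes, the classes by cluster, the subgroups and the Krtap genes inside the type I cluster. Circles are sites of any width, squares sites of at least 1 kb, and lines the 95% Wilson intervals. The 6 hair keratins of the type II cluster stand at 100% by both measures, whereas the 9 of the type I cluster fall from 66.7% to 11.1%, and simple epithelial keratins from 42.9% to 0%.

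The type II cluster was more widely covered than the type I cluster. Promoter sites were listed for 23 of 26 members of the type II cluster (88.5%, 71.0 to 96.0%) and for 19 of 27 of the type I cluster (70.4%, 51.5 to 84.1%), a difference of 18.1 points whose interval (−4.13 to 38.4) includes 0. For sites of at least 1 kb the counts were 18 of 26 and 10 of 27, and the difference of 32.2 points had an interval from 5.35 to 53.3. At least 50% of the body was covered in 20 of 26 and in 9 of 27, a difference of 43.6 points (16.8 to 62.6). Promoter windows were covered to 60.6% in the type II and 31.7% in the type I cluster. The median covered share of a body was 75.8% and 24.0%. Sites at type II members were also wider, with a median of 869 bp beside 538 bp in the type I cluster and 455 bp in the whole list. Sites of at least 5 kb made up 18.4% of the sites at type II members, 3.28% of those at type I members and 3.30% of the list.

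Between the clusters, hair keratins differed in site width. All 6 hair keratins of the type II cluster had a promoter site of at least 1 kb, and 1 of the 9 in the type I cluster did, a difference of 88.9 points (38.2 to 98.0). Their promoter windows were covered to 72.9% and 22.2%. At least 50% of the body was covered in 6 of 6 (61.0 to 100%) and 2 of 9 (6.32 to 54.7%), a difference of 77.8 points. The same direction held among epithelial keratins, with 14 of 19 and 7 of 17 bodies covered to at least 50% (32.5 points, 0.479 to 56.9). Promoter sites of at least 1 kb were found in 12 of these 19 and 8 of these 17 (16.1 points, −15.1 to 43.5). Whether the contrast between clusters is larger in hair than in epithelial keratins was not tested. Within the type I cluster, the 8 of 17 epithelial and 1 of 9 hair keratins with such a site differed by 35.9 points (−2.60 to 59.7), and in the type II cluster the 12 of 19 and 6 of 6 differed by −36.8 points (−59.0 to 6.01). The difference between the classes had opposite signs in the 2 clusters, and both intervals included 0.

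**Figure D2:**
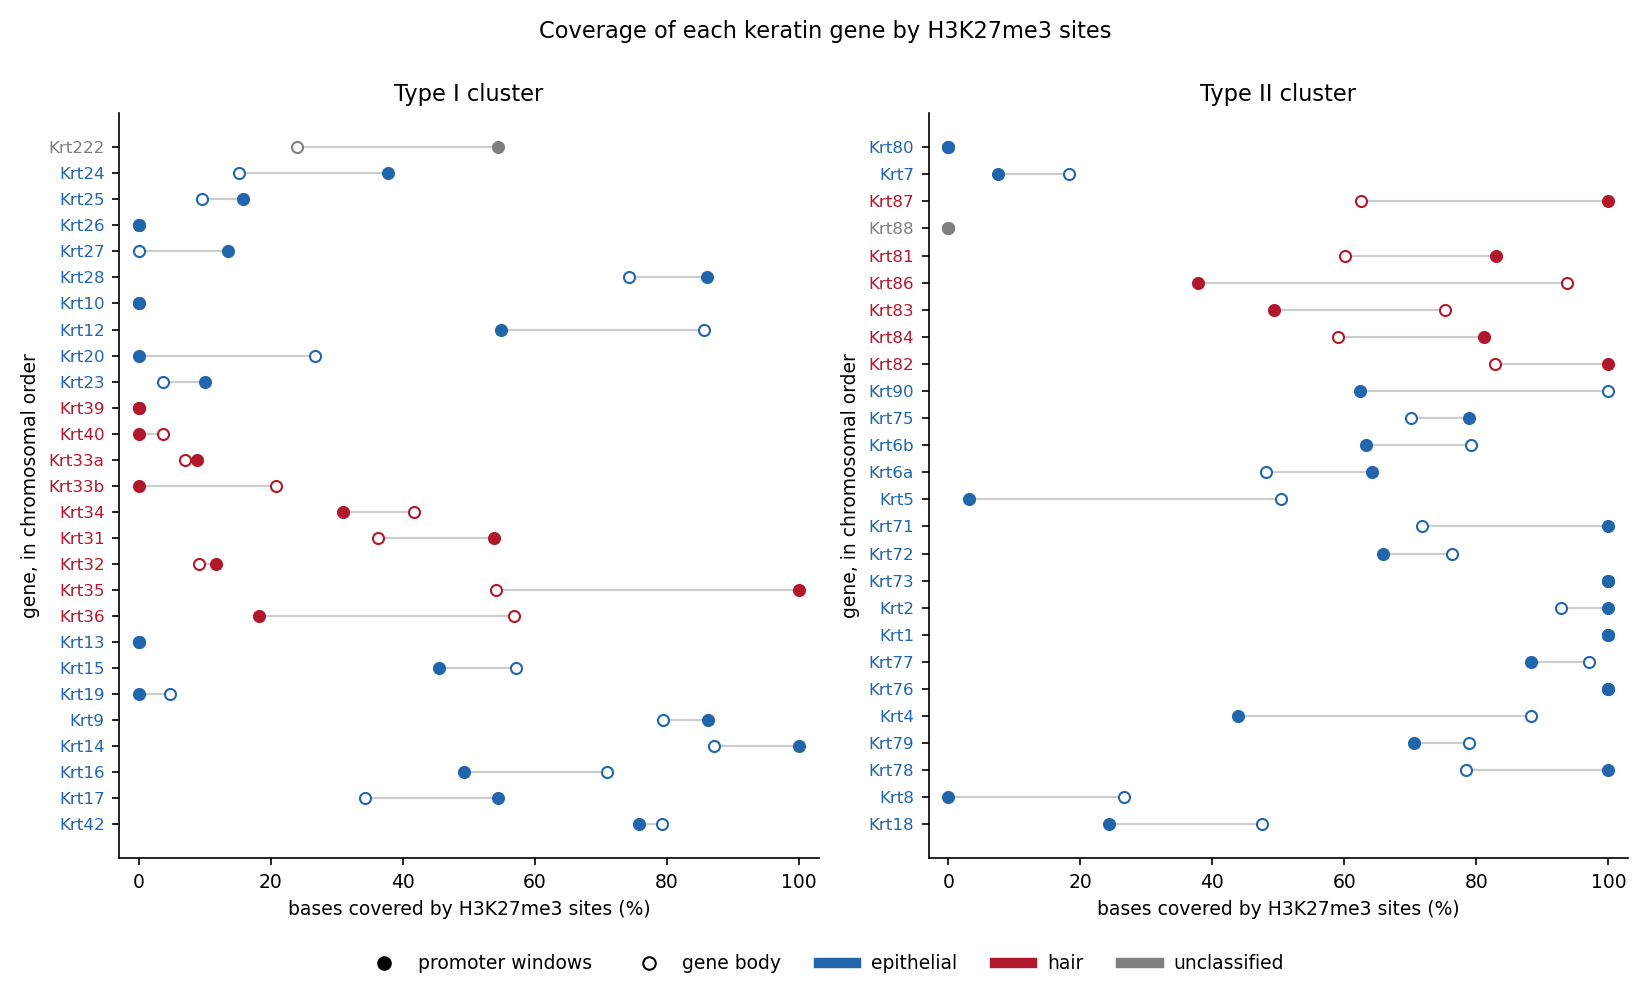
Bases covered by H3K27me3 sites (x axis, in %) for each of the 53 keratin genes in chromosomal order, with filled points for the promoter windows and open points for the gene body, coloured by class. In the type I cluster 8 genes lie at 0% of the promoter windows and 2, Krt35 and Krt14, at 100%, and in the type II cluster 3 lie at 0% and 8 at 100%.

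The type I cluster spans chr11:99232761-100269871, from Krt222 to Krt42, and is 1037 kb long. It held 149 sites that covered 15.3% of it, beside 10.4% of chromosome 11. Flanks of equal length were covered to 27.5% on the side of Krt222 and 13.1% on the side of Krt42. The cluster was therefore between its flanks in coverage. Its middle is a block of genes for keratin-associated proteins (Krtap), the matrix proteins in which hair keratin filaments are embedded, at chr11:99550130-99993994. That block was covered to 4.48%, and without it the cluster was covered to 23.3%. Between Krt40 and the hair keratins that begin with Krt33a, a stretch of 141 kb at chr11:99644077-99785157 held no site. Of the 23 Krtap genes in the cluster 7 had a promoter site (30.4%, 15.6 to 50.9%), which is near the background of all genes. Short reads can be placed less often in this block, as 87.6% of its 75-base words occur once in the assembly, against 98.7% for the rest of the cluster, and the part of this in the low coverage was not tested.

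**Figure D3:**
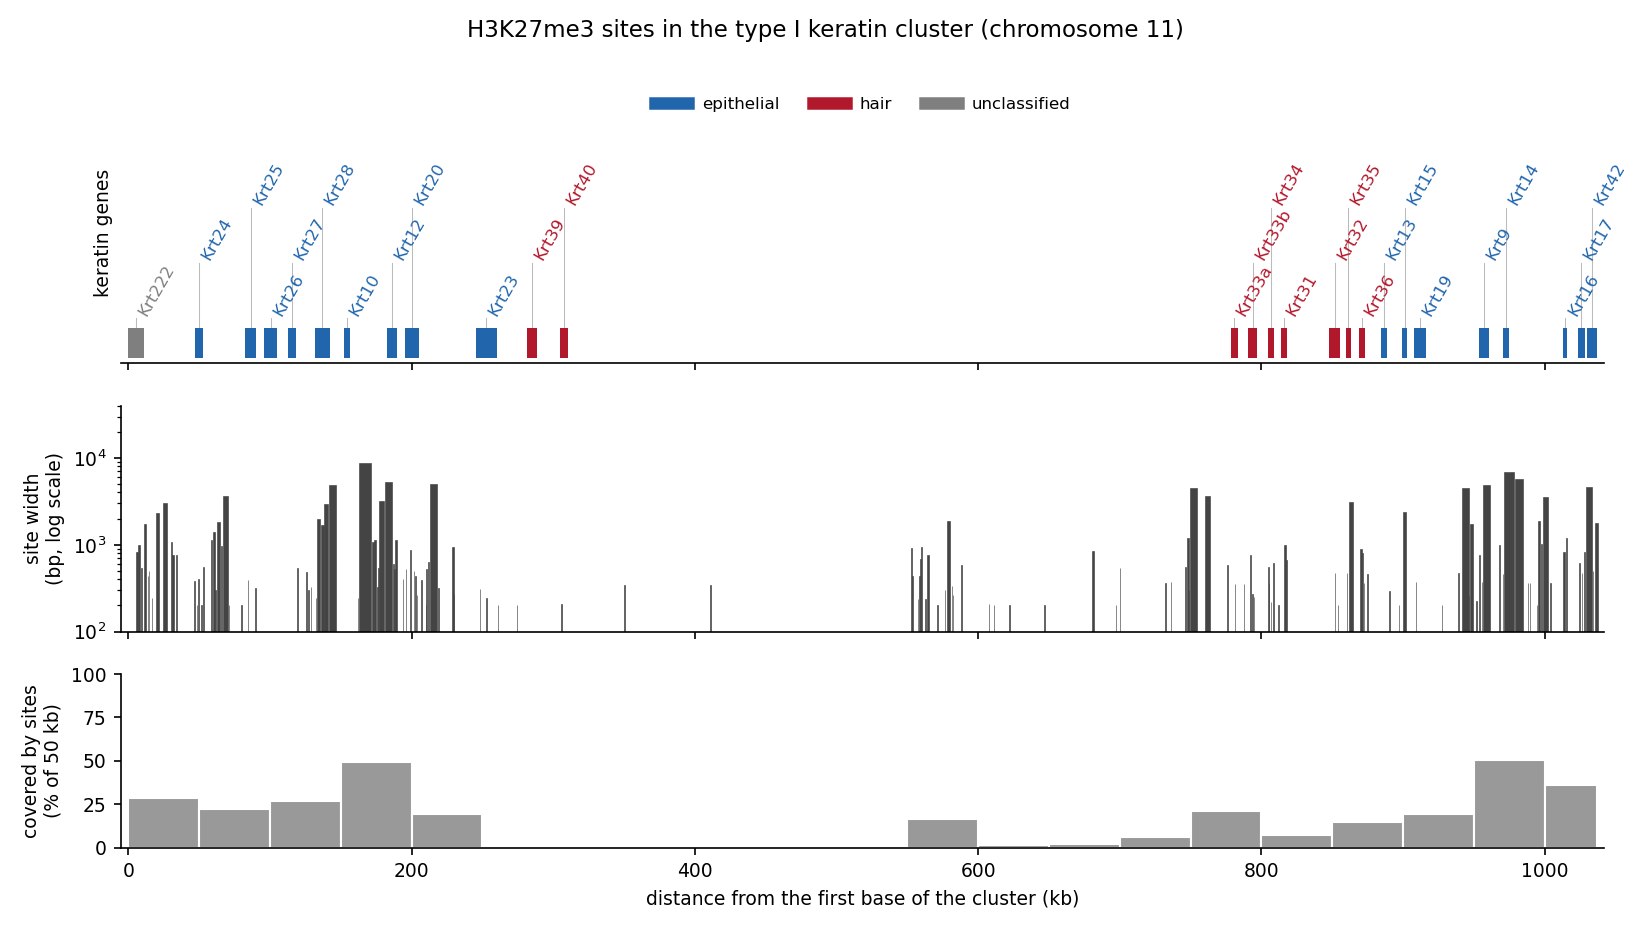
The type I cluster by distance from its first base (x axis, in kb), with the keratin genes coloured by class (top), each H3K27me3 site as a block as wide as the site and as high as its width in bp on a log scale (middle), and the share of each 50 kb covered by sites (bottom, in %). Coverage is highest in the stretches with Krt9 and Krt14 (50.7%) and with Krt10, Krt12 and Krt20 (49.4%), and it is 0% in 2 neighbouring 50 kb stretches of the Krtap block.

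The type II cluster spans chr15:101347444-102032027, from Krt80 to Krt18, and is 685 kb long. Krt18 is a type I gene that lies beside its partner Krt8 at the end of this cluster and was counted with it. The cluster held 189 sites, and 50.2% of it was covered, beside 6.94% of chromosome 15. The flank before Krt80 was covered to 42.8% and the one after Krt18 to 5.74%. The chromosome on the Krt80 side was thus covered nearly as much as the cluster, and on the Krt18 side about as little as the chromosome as a whole. Sequence of the cluster outside keratin bodies and promoter windows was covered to 43.9%, so the mark was not limited to the genes. The corresponding sequence of the type I cluster was covered to 12.0%, but it includes the Krtap block, which was covered to 4.48%. The first site lay 45.6 kb from the start of the cluster, so Krt80 and the rest of these 45.6 kb held none. The longest gap between neighbouring sites was 19.8 kb, between Krt78 and Krt8. The number of sites was 276 per Mb in the type II and 144 per Mb in the type I cluster, but this order turned when sites closer than 5 kb were joined (21.9 and 37.6 per Mb) or closer than 1 kb (84.7 and 86.8 per Mb). The covered share was higher in the type II cluster under each of the 6 alternatives that bear on it.

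**Figure D4:**
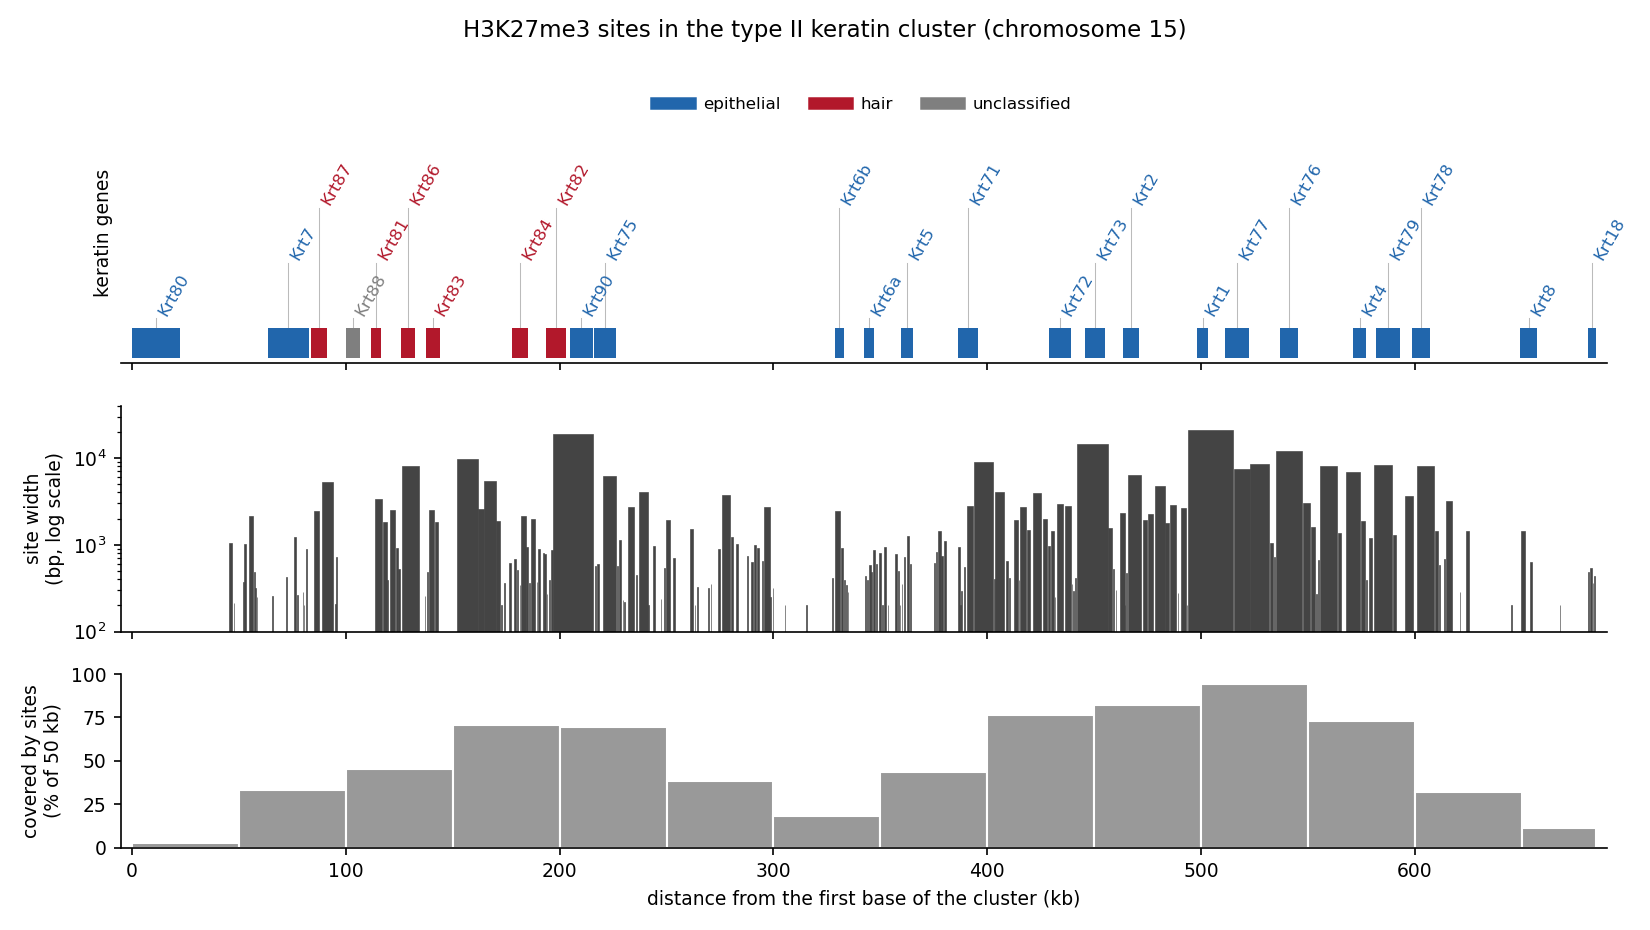
The type II cluster by distance from its first base (x axis, in kb), drawn as for the type I cluster, with genes coloured by class (top), site widths in bp on a log scale (middle) and the share of each 50 kb covered (bottom, in %). Coverage rises to 94.2% in the stretch with Krt1, Krt77 and Krt76 and is 2.52% at the end with Krt80 and 11.2% at the end with Krt8 and Krt18.

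Around the 5′ starts the 2 clusters also differed in shape. In the type I cluster 14.8% of the genes had a site 5 kb upstream, 33.3% at the start and 48.1% at 200 bp downstream, and 14.8% had one 5 kb downstream. In the type II cluster the share was 61.5% at 5 kb upstream, 57.7% at the start, 80.8% at 2200 bp downstream and 61.5% at 5 kb downstream. For all protein-coding genes it stayed between 10.8% and 17.6% at the same distances. In the type I cluster the share was still 40.7% at 1500 bp and 37.0% at 3200 bp downstream. Sites there were thus more frequent at the start and inside the gene than 5 kb upstream. The point 5 kb downstream is near the median gene length of 5674 bp in this cluster. In the type II cluster the share 5 kb away was near that at the start, but it varied in between, with 38.5% at 3600 bp upstream.

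**Figure D5:**
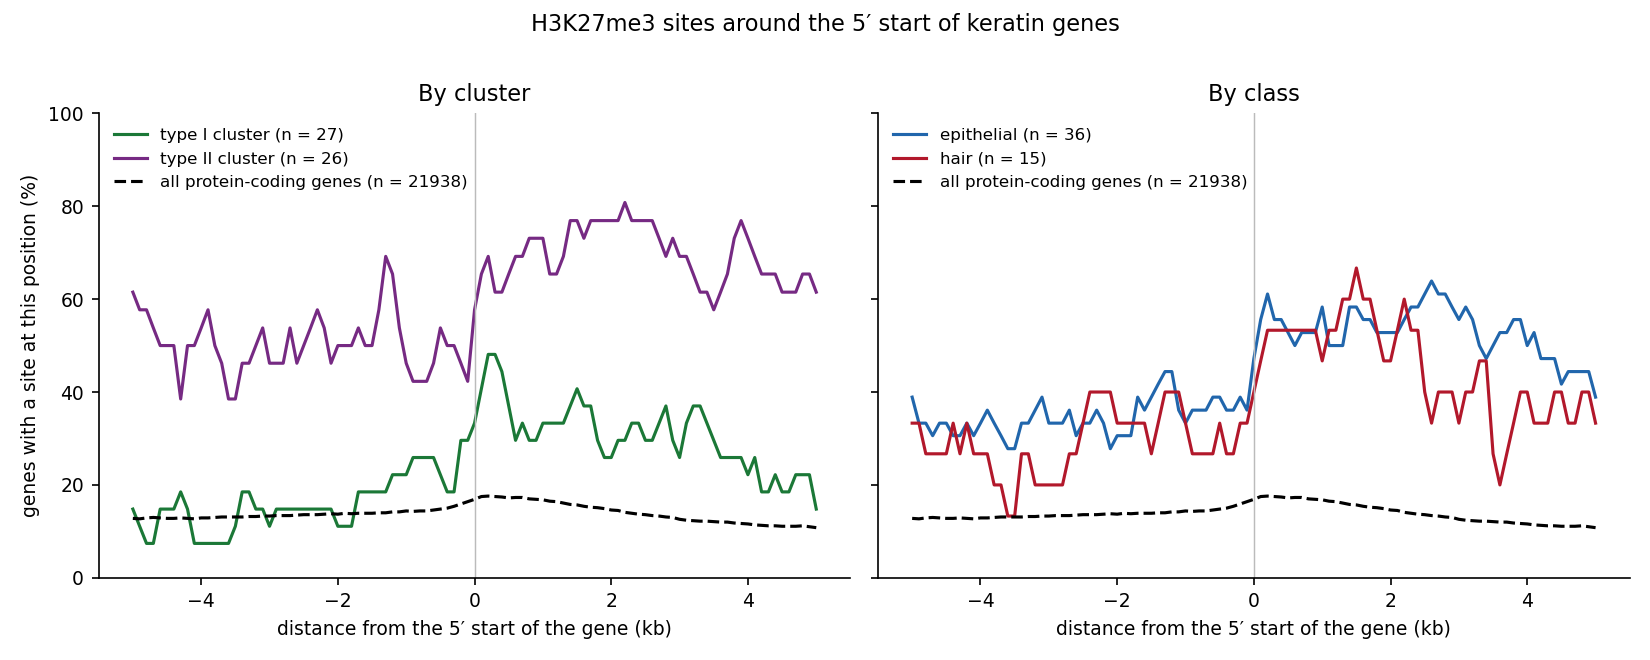
Share of genes (y axis, in %) with an H3K27me3 site at each distance from the 5′ start of the gene (x axis, in kb, positive values inside the gene), by cluster (left) and by class (right), with all protein-coding genes as a dashed line. The type II line stays above the type I line at every distance drawn, whereas epithelial and hair keratins cross.

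The 7 members grouped here as keratins of single-layered (simple) epithelia had the lowest covered share of promoter windows among the subgroups, at 3.95%. In the type II cluster all 4 of them lie at the ends, Krt80 and Krt7 at 1 end and Krt8 and Krt18 at the other. Subgroup and position therefore cannot be told apart there. A promoter site was found at 3 of 7 (42.9%), and none was as wide as 1 kb (0 of 7, Wilson upper limit 35.4%). Among all protein-coding genes these shares were 31.5% and 20.1%. Both lie within the Wilson intervals of the simple keratins, so neither count separates this subgroup from the background. Body sites, in contrast, were found in 6 of 7. Krt18 had a site of 486 bp that began 76 bp from its 5′ start and covered 24.3% of the window, whereas no site lay within 1 kb of the start of its partner Krt8, the nearest being 2468 bp away. Krt7, a keratin of ductal epithelia, had a site of 256 bp, and Krt23 one of 200 bp, the smallest width in the list. No promoter site was listed for Krt19, Krt20 and Krt80. Krt80, which was placed in this subgroup for this report, had no site in its body either. Its 5′ start was 22890 bp from the nearest site, the longest distance of all members. The other 6 simple keratins had body sites, which covered between 3.65% (Krt23) and 47.5% (Krt18) of the body, so none of the 7 bodies was covered to 50%.

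The 3 keratins of the basal layer all had a promoter site but differed widely. Krt14 lay inside a site of 6877 bp at chr11:100204102-100210978, which covered all of its promoter windows and 87.1% of the body. At Krt5, its type II partner, a site of 601 bp reached only 62 bp into the promoter window (3.10%), although 50.4% of the body was covered. Krt15, a type I basal keratin also found in stem cells of the hair follicle, was covered to 45.5% at the promoter by a site of 2382 bp. Its 5′ start was 926 bp from that site, so most of the covered bases belonged to a start inside the gene. With only the 5′ start, 3.75% of the window was covered.

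Suprabasal keratins, which replace Krt5 and Krt14 as epidermal cells differentiate, contained the member with the most covered bases in its promoter windows. This number depends on the size of the windows, which in Krt1, with 3 starts, was 5835 bp. Krt1 lay wholly inside a site of 21054 bp at chr15:101841272-101862325, the widest at any keratin gene, so that all 5835 bases of its promoter windows and 100% of the body were covered. The same site reached into the neighbouring Krt77, whose promoter windows were covered to 88.2% and body to 97.1%. Krt2, expressed late in epidermal differentiation, was covered to 100% at the promoter and 92.8% in the body. In contrast, Krt10, the type I partner of Krt1, had no site in its promoter windows or its body, and its nearest site was 5632 bp from the start. Krt9, of the epidermis of footpads, had a site of 4843 bp that covered 86.3% of the promoter window, and Krt24 had 2 sites with 37.7%. Over the 6 suprabasal keratins 5 had a promoter site.

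Some of the pairs whose proteins form filaments together were therefore marked unequally at the promoter. Krt1 was covered to 100% and Krt10 to 0%, Krt14 to 100% and Krt5 to 3.10%, Krt4 to 43.9% and Krt13 to 0%, and Krt18 to 24.3% and Krt8 to 0%. Krt4 and Krt13 are the pair of the lining of mouth and oesophagus. In the pairs of stress keratins, which are induced in wounded epidermis, the values were closer, with 64.2% in Krt6a, 63.3% in Krt6b, 49.3% in Krt16 and 54.4% in Krt17. The more covered partner was of type II in Krt1 with Krt10 and in Krt4 with Krt13 and of type I in Krt14 with Krt5 and in Krt18 with Krt8. These pairs were chosen for description after their values were seen. Krt6a, Krt6b and Krt16 have near copies in the genome, and 74.1%, 70.4% and 81.8% of the 75-base words of their bodies occur once. The part of this in their sites was not tested.

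Keratins of mucosa and cornea had a promoter site in 5 of 6 cases, Krt13 being the exception, and each of these 5 had one of at least 1 kb. Krt76, of the palate, was covered to 100% at promoter and body by a site of 12047 bp, Krt78 to 100% at the promoter and 78.4% in the body, and Krt12, the keratin of the cornea, to 54.9% and 85.7%. Krt90 shared a site of 18661 bp at chr15:101544383-101563043 with the hair keratin Krt82, and the whole of its body was covered. Stress and appendage keratins all had a promoter site (7 of 7). Krt79 had 5642 covered bases in its promoter windows, the second largest number, from sites of up to 8336 bp. Its 4 starts gave windows of 8004 bp, of which this was 70.5%. However, its 5′-most start was 1964 bp from the nearest site, so the covered windows belonged to starts inside the gene, and the RefSeq promoter shown above held no covered base. Krt42, a nail keratin at the end of the type I cluster, had 3034 covered bases and shared a site of 4636 bp with Krt17. Krt75, of the companion layer of the hair follicle, was covered to 78.9%.

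Keratins of the inner root sheath, the layers that mould the growing hair, had a promoter site in 6 of 7 cases and differed by cluster. The type II genes Krt71, Krt72 and Krt73 were covered to 100%, 65.8% and 100% at the promoter, and Krt73 lay wholly inside a site of 14284 bp. The type I genes Krt25, Krt26 and Krt27 were covered to 15.8%, 0% and 13.5%, and only Krt28, with a site of 4915 bp and 86.1%, was near the type II values. Krt26 was 13869 bp from the nearest site. Over the subgroup, 82.9% of the type II and 28.8% of the type I promoter windows were covered.

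Among the hair keratins of the type II cluster, Krt82 and Krt87 were covered to 100% of the promoter window, by sites of 18661 bp and 5246 bp. Krt82 belongs to the hair cuticle. Krt81, Krt83 and Krt86, keratins of the hair cortex, were covered to 82.9%, 49.4% and 37.8% at the promoter and to 60.1%, 75.3% and 93.8% in the body. In Krt86 and Krt83 the 5′ start was outside a site, by 403 bp and 712 bp, although most of the body was covered. Krt84 had 3 promoter sites that covered 3247 bases, the most of any hair keratin, or 81.1% of its windows. Its windows of 4002 bp, from 2 starts, were larger than the 2001 bp of Krt82 and Krt87. All 6 thus had both a marked promoter and a body that was covered to at least 50%. Of the 75-base words of the promoter windows, 81.8% in Krt81, 85.3% in Krt86 and 91.7% in both Krt83 and Krt87 occur once in the assembly, and the part of this in their sites was not tested.

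The type I hair keratins were marked in smaller pieces. Krt35, expressed early in the hair matrix and cuticle, was the exception, with a site of 3143 bp at chr11:100094521-100097663 that covered 100% of the promoter windows and 54.1% of the body. Krt31, of the cortex, had 2 promoter sites of up to 995 bp that covered 53.8%. In Krt34, Krt36, Krt32 and Krt33a a single promoter site of 620 bp, 364 bp, 469 bp and 352 bp covered 31.0%, 18.2%, 11.7% and 8.80%. Krt33b, Krt39 and Krt40 had no promoter site. Krt39 had none in its body either, and its 5′ start was 13781 bp from the nearest site, whereas Krt33b was covered to 20.7% of the body. Krt39 and Krt40 lie apart from the other 7, next to the Krtap block. Of the 75-base words in the promoter windows, 99.4% in Krt39, 98.9% in Krt40 and 95.8% in Krt33b occur once. In the 6 genes with a promoter site the share was 100% in Krt32, Krt35 and Krt36, 94.1% in Krt33a, 91.7% in Krt31 and 88.6% in Krt34. Its part in the sites was not tested. The exons of the type I hair keratins were covered to 34.1% and their introns to 14.6%, while in the type II hair keratins the values were 61.7% and 77.7%.

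The unclassified Krt222 at the end of the type I cluster had 2186 covered bases in its promoter windows (54.4%) and a body covered to 24.0%. Krt88, between the hair keratins Krt87 and Krt81, had no site in its promoter window or body. In all, 11 keratin genes had no promoter site, namely Krt10, Krt13, Krt19, Krt20, Krt26, Krt33b, Krt39 and Krt40 in the type I cluster and Krt8, Krt80 and Krt88 in the type II cluster. The distance from their 5′ starts to the nearest site ranged from 1347 bp in Krt20 to 22890 bp in Krt80. Around 1 kb, the limit of the windows, Krt5 had a site 939 bp from its 5′ start and counted as marked, whereas Krt20 at 1347 bp and Krt13 at 1458 bp did not. In Krt7, Krt32, Krt33a and Krt79 the 5′ start was over 1 kb from a site, and they counted as marked through another annotated start.

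Base composition was compared with coverage as a description across genes, which share clusters and sites. The GC content around the 5′ start and the covered share of the promoter windows had Pearson's r = 0.38 and Spearman's rho = 0.39 over the 53 genes. In the type I cluster they were 0.55 and 0.57 (27 genes), and in the type II cluster −0.12 and −0.14 (26 genes). For the CpG ratio r was 0.07, and for gene length −0.06, over the 53 genes. The relation with GC content was therefore not seen in both clusters.

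Genes related to keratins by structure or function gave a further comparison. Among 15 other intermediate filament genes 10 had a promoter site, which were led by the neuronal genes Nefh with 21782 bp, Prph with 16236 bp, Ina with 6968 bp, Nefl with 6813 bp and Nefm with 5111 bp. Vim, which encodes the intermediate filament protein of fibroblasts, had a site of 363 bp that covered 7.61% of its promoter windows. This site lay at a start inside the gene, and the 5′ start was 6093 bp from the nearest site. No promoter site was listed for Des, Lmna, Lmnb1, Lmnb2 and Bfsp2. CpG-rich promoters were found in 10 of these 15 genes and in none of the keratins. Of 6 genes for transcription factors that regulate keratin genes, Hoxc13, Dlx3 and Lef1 had promoter sites, the widest being the 89320 bp site at Hoxc13, and Trp63, Foxn1 and Klf4 had none. Of 9 genes for proteins that anchor keratin filaments at desmosomes and hemidesmosomes 5 had a promoter site, among them Pkp1 with 14623 bp, Dsp with 5599 bp and Ppl with 5042 bp, whereas Jup, Plec, Pkp2 and Eppk1 had none. Another cluster of epidermal genes, the Sprr and Lce genes of the cornified envelope on chromosome 3, had a promoter site in 4 of 36 cases (11.1%, 4.41 to 25.3%), below the background of all genes. These lists are small, and the shares are descriptions beside the 31.5% of all genes.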

How the data were processed

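H3K27me3 ChIP-seq was measured by the study in 2 experiments. The list is from the first, with 12 libraries of NG3 cells and 2 input libraries, and the second was not used here. Single-end reads of 75 cycles were trimmed with Trim Galore, aligned with BWA to mm10 (GRCm38.p6), filtered with samtools following ENCODE, merged with Picard and scaled down to the library of lowest coverage. Broad peaks from MACS were then combined over all samples. Versions, the peak threshold and the rule of combination are not given in the sources used here. The study names a minimum sequencing depth for its ChIP samples, whereas the reads behind each site are unknown. The deposited list, as the authors made it, holds the chromosome with the first and last position of 153983 sites, and 0 values per library. It was not possible to test treated against control cells, and the number of columns not assigned to a sample was 0.

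The deposited positions were taken as 0-based and half-open, since the smallest difference of end and start was 200 bp, and are printed 1-based. Sites were joined to GENCODE M21 (the study used a later release) and to the GRCm38.p6 sequence with Python 3.11.15, numpy 2.4.6 and pandas 2.3.3. An overlap of 1 bp counted. Windows of 1 kb on either side of the start sites of a gene were merged before covered bases were counted. Intervals are 95% Wilson intervals for shares and Newcombe intervals for differences, and no p-value was computed, as the list has no replicates. The share of 75-base words that occur once in the assembly, on either strand, was counted for each gene as a measure of where reads can be placed. Functions were tested on simulated data.

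Members and lists were chosen with earlier results of these data known. Named with values by rule were the 10 members with the most covered promoter bases, the 5 with the widest body sites, simple and basal keratins, hair keratins with a promoter site and the members at the cluster ends, and values of other members are given with their subgroup. Alternatives were narrower and wider windows, only the 5′ start, minimum site widths of 500 bp and 1 kb, an overlap of 200 bp, sites joined below 1 kb and 5 kb, inner root sheath keratins counted as hair keratins, the type I cluster without the Krtap block and clusters extended by 50 kb. Applying them to each cluster's promoter counts and to the difference between classes was chosen after seeing the data.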

Additional observations from a re-analysis of the deposited data

How the results depend on the processing

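Among the counts, covered shares and site densities of classes and clusters, 12 values under alternatives moved by more than 1.5 times. With only sites of at least 1 kb, 7 hair keratins and 10 members of the type I cluster had a promoter site, in place of 12 and 19. The covered share of the type I cluster was 23.3% without the Krtap block and 30.1% when gaps under 5 kb were bridged, in place of 15.3%. Site density depended on the definition of a site. In the type I cluster it was 71.4 per Mb with sites of at least 500 bp, 35.7 with sites of at least 1 kb, 86.8 when gaps under 1 kb were bridged and 37.6 when gaps under 5 kb were bridged, in place of 144. In the type II cluster the values in the same order were 177, 108, 84.7 and 21.9, in place of 276. The difference between epithelial and hair keratins in the share of promoters with a site ranged from −10.6 to 9.44 percentage points. It was below 0 with promoter windows of 500 bp, with an overlap of at least 200 bp and with inner root sheath keratins counted as hair keratins, and it stayed within the interval of the reported difference under all 9 alternatives run for it. Of 330 values for single genes 92 moved.

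No paired analysis was possible because values of single libraries are not in the data used. Leaving out 1 replicate at a time was impossible too. Control and treated cells are covered together, so it is not known from which of the 6 groups a site stems. The depth behind a site is unknown, and the absence of a site says only that none was called. Lists of 3 to 7 genes in the subgroups give wide intervals.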
